A study of Mus musculus with 6 samples.

Results

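The hepatocyte transcription factor network is described here as 8 genes, Hnf4a, Foxa1, Foxa2, Foxa3, Cebpa, Onecut1, Prox1 and Nr5a2, in the liver of progeroid and normal mice. They were found by name among the probe sets with a single annotated gene symbol. They are 8 of the 19938 genes so named on an array of 35512 probe sets. Each had 1 such probe set, and all 8 passed the filter on low values. The mice were female C57BL/6 animals, 3 months old, kept without food for 6 h before liver was taken. There were 3 mice homozygous for the LmnaG609G/G609G knock-in allele (replicates 1, 3 and 5) and 3 Lmna+/+ wild-type mice (replicates 2, 4 and 6), with 1 microarray per mouse, and mice are named by genotype and these numbers. Lmna encodes the A-type lamins of the nuclear envelope, and the knock-in allele, present in every cell of the animal, is used to model Hutchinson-Gilford progeria, a premature ageing syndrome. Values are intensities on a linear scale as the authors deposited them, and a change is the difference of mean log2(intensity + 16), knock-in minus wild-type, tested with limma over 26634 probe sets. A gene is said to have risen or fallen where its limma p, adjusted over all of these probe sets, was below 0.05. A fold difference is 2 to the power of the log2 change, so it can differ from the ratio of the printed means.

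Hepatocytes keep their identity through a set of transcription factors that bind each other's genes as well as genes for plasma proteins, bile acid handling and fuel metabolism. FOXA proteins open chromatin at liver enhancers, HNF4A, C/EBP alpha, ONECUT1 and NR5A2 occupy many of those enhancers in adult liver, and PROX1 restrains several nuclear receptors. Fasting and stress hormones act on the same promoters through coactivators such as PGC-1 alpha, the product of Ppargc1a.

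Both genotypes could be compared on the scale as deposited. Array medians lay between 97 and 104 intensity units, which is a range of 0.09 in the fit's log2 units, and no 2 arrays held identical values. The root mean square log2 distance from the wild-type mean was 0.55, 0.44 and 0.58 for knock-in replicates 1, 3 and 5, so mouse 3 departed least from wild-type. The distances of the wild-type arrays from the mean of the other two were 0.19 to 0.23. Lmna itself read 290, 249 and 258 in knock-in mice, against 282, 267 and 362 in wild-type mice, and its single probe set does not separate splice forms and so does not check the genotype. Over all tested probe sets 25.9% were called, 14.9% higher and 10.9% lower in knock-in liver, the genotypes did not overlap at 41.1%, and the median log2 change was 0.03. There were 3974 probe sets called higher and 2914 probe sets called lower, which became 3119 and 3424 after centring of the arrays on their medians. No call on the 8 genes changed with that centring. With 1 named probe set per gene, as in the gene lists below, 2320 were called higher and 2508 lower. The shares over all tested probe sets include unnamed probe sets and several per gene. They are therefore only a rough background for the gene lists.

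Promoter sequences of Hnf4a, Foxa1 and Cebpa are shown because the factors are known to bind each other's promoters, and because Hnf4a moved opposite to the other two. Prox1, which also moved, is not printed because neither of its windows held a motif match, while Cebpa stands for such a window. RefSeq (GRCm38.p6) gave 13 annotated starts for the 8 genes, and the 250 bases before each were searched on both strands for 5 core motifs. Each was searched as fixed letters, namely HNF4 CAAAGTCCA, FOXA TGTTTAC, C/EBP TTGCGCAA, ONECUT ATCAAT and NR5A2 CAAGGTCA. The annotated starts of Hnf4a printed here are the upstream start, known as P2 and used in early development and pancreas, at chr2:163506607-163506856 (plus strand), and the downstream start, known as P1 and used in adult liver, at chr2:163546905-163547154 (plus strand). The array has 1 Hnf4a probe set and cannot say which start its signal came from. Foxa1 is shown at chr12:57546112-57546361 (minus strand) and Cebpa at chr7:35119043-35119292 (plus strand). Each sequence reads 5′ to 3′ on the gene's own strand and ends 1 base before the start, and capitals mark motif matches.
Hnf4a upstream start: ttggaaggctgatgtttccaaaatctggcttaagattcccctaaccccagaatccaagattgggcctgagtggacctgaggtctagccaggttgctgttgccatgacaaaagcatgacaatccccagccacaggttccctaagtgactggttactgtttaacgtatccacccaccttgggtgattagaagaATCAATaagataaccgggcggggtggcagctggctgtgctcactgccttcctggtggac
Hnf4a downstream start: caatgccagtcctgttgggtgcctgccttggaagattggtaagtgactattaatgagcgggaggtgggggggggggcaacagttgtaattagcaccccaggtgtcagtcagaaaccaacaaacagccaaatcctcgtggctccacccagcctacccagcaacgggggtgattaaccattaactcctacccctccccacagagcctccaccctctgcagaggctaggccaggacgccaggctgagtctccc
Foxa1: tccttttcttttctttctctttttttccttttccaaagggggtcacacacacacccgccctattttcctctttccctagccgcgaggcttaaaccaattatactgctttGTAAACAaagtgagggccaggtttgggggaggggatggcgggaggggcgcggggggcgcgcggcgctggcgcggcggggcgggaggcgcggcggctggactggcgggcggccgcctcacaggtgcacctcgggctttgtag
Cebpa: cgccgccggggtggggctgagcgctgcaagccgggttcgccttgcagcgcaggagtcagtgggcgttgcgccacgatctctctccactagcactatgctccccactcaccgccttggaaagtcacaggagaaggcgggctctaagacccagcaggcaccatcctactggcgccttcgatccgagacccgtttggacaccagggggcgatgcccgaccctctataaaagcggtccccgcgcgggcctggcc

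The upstream Hnf4a window held the ONECUT letters at 59 bases before the start, and its downstream window held none of the 5 motifs. Foxa1 carried the FOXA letters on the opposite strand at 141 bases before its start. None was found in the Cebpa window either, nor in those of Prox1, Foxa3, Onecut1 and Nr5a2. Elsewhere, Foxa2 had an ONECUT match, on the opposite strand, at 213 bases before its first start. No matches shared bases. Of 32851 such windows in the table, 6.72% held the ONECUT letters and 3.17% the FOXA letters. The longer HNF4, C/EBP and NR5A2 letters were in 0.384%, 0.164% and 1.33% of windows and in 0 of the 13 of these genes. A match is a match of letters, not evidence of binding.

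Of the 8 genes, 1 rose (Hnf4a), 3 fell (Cebpa, Foxa1 and Prox1) and 4 did not pass the test (Foxa2, Foxa3, Onecut1 and Nr5a2), beside 25.9% of all tested probe sets called. The genotypes did not overlap for the 4 that were called and overlapped for the other 4, beside 41.1% of all tested probe sets without overlap, so the share without overlap was near the background. The counts of 1 higher and 3 lower were unchanged in every alternative analysis except 1, in which leaving out knock-in mouse 3 added Foxa2 to make 4 lower. Liver holds several cell types, and in bulk tissue fewer cells of a type and less RNA per cell cannot be told apart.

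**Figure D1:**
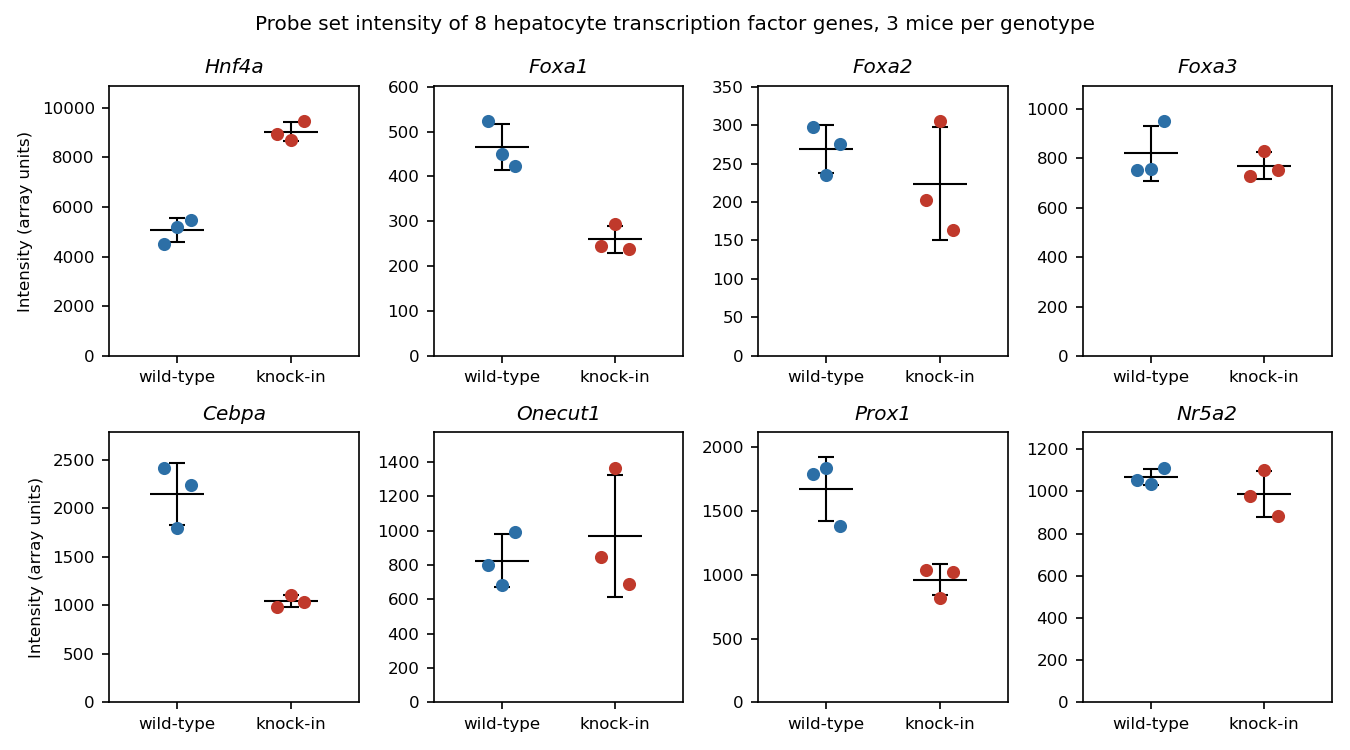
Intensity (array units, linear axes starting at 0, scaled for each gene) of the 8 transcription factor genes in 3 wild-type (blue) and 3 knock-in (red) livers; each point is a mouse, the long bar the mean and the short bars 1 SD either way. Hnf4a points of the knock-in mice lie above all wild-type points, those of Foxa1, Cebpa and Prox1 lie below, and the other 4 genes overlap.

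Hnf4a, the orphan nuclear receptor that drives much of the hepatocyte programme, was higher in the knock-in mice. Its probe set (10478389) read 8948, 8707 and 9461 in knock-in replicates 1, 3 and 5, and 4529, 5192 and 5479 in wild-type replicates 2, 4 and 6. The lowest knock-in value was thus well above the highest wild-type value. Means were 9039 ± 385 and 5067 ± 487 (SD, n = 3 mice per genotype). The log2 change was 0.84 ± 0.09, a 1.79-fold difference (SE; 95% interval 0.63 to 1.04; limma adjusted p = 0.00108). The change stayed between 0.76 and 0.90 as each mouse was left out.

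Nr5a2, the liver receptor homologue that acts on bile acid and cholesterol genes, showed no called difference. It read 980, 1099 and 882 in knock-in mice, against 1054, 1037 and 1112 in wild-type mice (probe set 10358210). Knock-in replicate 3 lay inside the wild-type range and the other two below it. The log2 change was -0.12 ± 0.11 with an interval of -0.37 to 0.13 (limma adjusted p = 0.493), so a fall of the size seen for Foxa1, Cebpa or Prox1 lay outside the interval.

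Among the FOXA pioneer factors, Foxa1 fell and neither Foxa2 nor Foxa3 passed the test. Foxa1 (probe set 10400504) read 246, 294 and 239 in knock-in mice, against 523, 451 and 424 in wild-type mice. Every knock-in value lay below every wild-type value. The means were 260 ± 29.9 and 466 ± 51.2. The log2 change was -0.81 ± 0.12, a 1.75-fold difference (95% interval -1.09 to -0.52; limma adjusted p = 0.00369). Leaving out each mouse gave -0.89 to -0.72.

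Foxa2, which acts beside Foxa1 at many of the same liver enhancers, was the least even of the 3 in knock-in liver. It read 203, 305 and 163 there and 297, 235 and 275 in wild-type liver (probe set 10488374). Knock-in replicate 3 was the highest of all 6 mice and the other two knock-in mice were the lowest. The log2 change was -0.29 ± 0.21 (95% interval -0.77 to 0.20; limma adjusted p = 0.374). Without knock-in mouse 3 it was -0.52 and passed the test (limma adjusted p = 0.0335).

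Foxa3, a FOXA family member that is abundant in adult liver, read 729, 831 and 751 in knock-in and 754, 756 and 950 in wild-type liver (probe set 10560431). The ranges overlapped, and wild-type mouse 6 alone stood above every knock-in mouse. The log2 change was -0.08 ± 0.12 (95% interval -0.37 to 0.20; limma adjusted p = 0.685), and without wild-type mouse 6 its sign turned, at 0.03.

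The log2 ratio between FOXA genes within a liver was compared between genotypes for the 3 possible pairs. Foxa1 relative to Foxa2 was lower by 0.52 in knock-in liver, with a log2 ratio of 0.24 ± 0.28 against 0.76 ± 0.15 (SD). Relative to Foxa3 it was lower by 0.72, at -1.52 ± 0.07 against -0.79 ± 0.32. Both differences separated the genotypes without overlap, and the exact two-sided permutation p was 0.1 for each (0.15 adjusted over the 3 pairs), the smallest that 3 mice against 3 allow. Foxa2 relative to Foxa3 differed by -0.20 (exact permutation p = 0.4, 0.4 adjusted). These ratios compare probe sets, so their level has no meaning between genes and only the shift between genotypes can be read. With 3 mice against 3 this permutation test cannot reach 0.05. It therefore could not decide whether the Foxa1 fall differed from the changes of Foxa2 and Foxa3.

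Cebpa, which encodes the C/EBP alpha factor of hepatocyte maturation and energy metabolism, had the largest fall of the 8. It read 983, 1110 and 1036 in knock-in mice, against 2418, 1797 and 2236 in wild-type mice (probe set 10552140). The wild-type spread was wide, but its lowest mouse was still far above the highest knock-in mouse. Means were 1043 ± 63.8 and 2150 ± 319. The log2 change was -1.02 ± 0.13, a 2.03-fold lower signal (95% interval -1.32 to -0.73; limma adjusted p = 0.00185). With each mouse left out the change was -1.15 to -0.93.

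Onecut1, also called HNF6, works upstream of Hnf4a and Foxa2 in liver and biliary development. Its values were 846, 1367 and 691 in knock-in and 803, 682 and 991 in wild-type liver (probe set 10587082). Knock-in replicate 3 was far above the other mice, the same animal in which Foxa2 was highest. The log2 change was 0.18 ± 0.25 (95% interval -0.40 to 0.77; limma adjusted p = 0.658) and turned to -0.09 without that mouse. The interval is wide enough to hold a change in either direction.

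Prox1, the homeobox factor that binds HNF4A and NR5A2 and represses their activity, read 1041, 820 and 1022 in knock-in and 1788, 1839 and 1385 in wild-type liver (probe set 10361023). All knock-in values lay below all wild-type values. Means were 961 ± 122 and 1671 ± 249. The log2 change was -0.78 ± 0.15, a 1.72-fold difference (95% interval -1.13 to -0.44; limma adjusted p = 0.00810). Leaving out each mouse gave -0.91 to -0.68. Prox1 also marks lymphatic endothelium, so the other markers of that cell type are given beside it. Of 9 listed lymphatic genes 6 were tested, including Prox1 itself, and 1 rose, 1 fell and 4 did not pass. Over all tested probe sets 14.9% were higher and 10.9% lower. The 6 had a median change of 0.02, which lay between -0.09 and 0.11 as mice were left out. Lyve1, a hyaluronan receptor of lymphatic and sinusoidal endothelium, rose by 1.43 ± 0.35 (limma adjusted p = 0.0231), a call lost without knock-in mouse 5 (limma adjusted p = 0.0657). Pdpn, a defining marker, stayed near the array median at 84 to 110 and changed by -0.12 ± 0.10 without passing the test. Flt4 changed by 0.20 ± 0.11, Sema3d by 0.15 ± 0.23 and Reln by -0.40 ± 0.18, and none of these passed. Reln passed without knock-in mouse 3, at -0.61 (limma adjusted p = 0.00483), and with array weights (limma adjusted p = 0.0352). Summed over the 8 listed genes with a probe set, 2 of them below the filter, the level was 3132 to 4092 in knock-in liver. In wild-type liver it was 3522 to 4038. Prox1 itself, which fell, is in that sum, so the sum does not give the level of the other markers. The part of lymphatic endothelium in the Prox1 result was not tested.

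**Figure D2:**
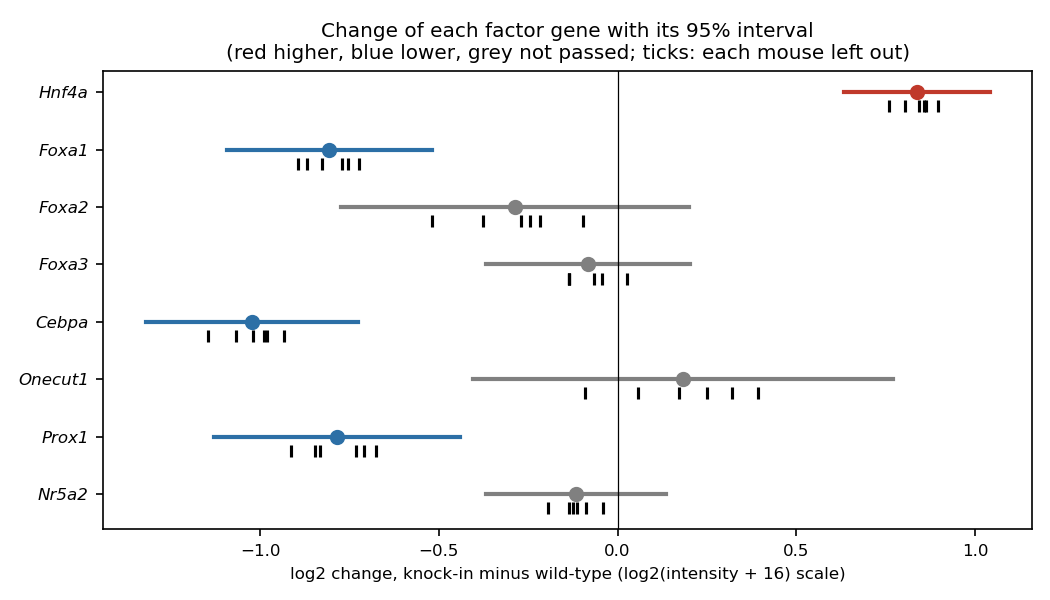
Log2 change of the 8 genes, knock-in minus wild-type on the log2(intensity + 16) scale, with points for the estimate, horizontal bars for its 95% interval and short ticks for the value with each mouse left out in turn. The ticks of Hnf4a, Foxa1, Cebpa and Prox1 stay away from 0, while those of Foxa3 and Onecut1 lie on both sides of it.

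The genes nearest to each moved factor in their pattern over the 6 mice were found by the root mean square distance of log2 values centred on each gene's mean, among 15237 genes. Nearest to Hnf4a were Sult1d1, a sulfotransferase gene (distance 0.047), Zxdc (0.055) and Psmd9 (0.055). Cebpa lay closest to Aqp9, the glycerol channel of hepatocytes (0.032), then Bst2 and Rtn4ip1 (both 0.047). For Foxa1 they were Acox3, a peroxisomal oxidase (0.053), Lrrc42 (0.056) and Ndufs8 (0.057). For Prox1 they were Plekhg6 (0.055), Slc9a3r1 (0.065) and Vwce (0.082). The closest of these, Aqp9, read 2778, 3195 and 2952 in knock-in and 6516, 5123 and 6120 in wild-type liver, with replicate 4 lowest among wild-type mice as for Cebpa. With 3 mice in each genotype, genes whose genotype difference has a similar size are near by this measure.

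Other liver-enriched transcription factors moved in both directions. Of 20 listed, 18 had a single-symbol probe set, of which 3 rose, 5 fell and 10 did not pass. The median log2 change was -0.12 against 0.03 over all tested probe sets, of which 14.9% were higher and 10.9% lower. Leaving out mice gave 2 to 4 higher and 4 to 7 lower calls, and a median of -0.06 without wild-type mouse 4, -0.08 without knock-in mouse 5 and -0.20 without wild-type mouse 6.

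Within the C/EBP family, Cebpd, an acute-phase relative of Cebpa, rose while Cebpa fell. Cebpd read 514, 510 and 642 in knock-in and 112, 136 and 154 in wild-type liver, which is 3.81-fold higher (log2 change 1.93 ± 0.14; limma adjusted p = 0.000347). Cebpb, named after its values were seen, read 1240, 1232 and 1256 against 581, 728 and 1132. Its change of 0.66 ± 0.22 did not pass (limma adjusted p = 0.0644), though the genotypes did not overlap. It passed at 0.92 without wild-type mouse 6 (limma adjusted p = 0.00787).

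Onecut2, the relative of Onecut1, read 1094, 1390 and 835 in knock-in and 1965, 1650 and 1796 in wild-type liver, and fell by 0.72 on the log2 scale (limma adjusted p = 0.0235). That call was lost without knock-in mouse 1 or wild-type mouse 2 or 6 (limma adjusted p = 0.0658 to 0.0815). Creb3l3, a fasting-activated factor of the hepatocyte endoplasmic reticulum, read 455, 714 and 321 against 1518, 1275 and 1617 and changed by -1.60 ± 0.26. Tbx3, a liver developmental regulator, changed by -1.38 ± 0.19 and the nuclear factor I gene Nfib by -0.85 ± 0.11. Gata6, an endodermal GATA factor, rose by 1.03 ± 0.10, from 514 ± 47.3 to 1065 ± 58.2. Limma adjusted p for these 4 lay between 0.000981 and 0.00477.

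Nuclear receptors listed as partners of these factors mostly fell where they moved. Of 18 listed, 16 were tested, and 6 fell, 1 rose and 9 did not pass, with a median of -0.27, beside 10.9% lower and 14.9% higher over all tested probe sets. Nr1i3, the constitutive androstane receptor, read 1256, 1452 and 1425 in knock-in and 3786, 4044 and 4115 in wild-type liver, a log2 change of -1.52 ± 0.09 (limma adjusted p = 0.000175). The fatty acid receptor gene Ppara read 1245, 1543 and 881 against 3709, 3443 and 3509. The bile acid receptor gene Nr1h4 read 813, 1093 and 512 against 2348, 2102 and 2208. Both had their highest knock-in value in replicate 3 and no overlap with wild-type, with changes of -1.56 ± 0.19 and -1.51 ± 0.24. Nr2f2 and Nr2f6, COUP-TF family receptors that can compete with HNF4A for its sites, changed by -0.79 ± 0.11 and -0.71 ± 0.13. Nr0b2, the small heterodimer partner that is a target and an inhibitor of NR5A2, was the 1 that rose, by 0.65 ± 0.13, with 830, 822 and 735 in knock-in and 458, 597 and 463 in wild-type liver (limma adjusted p = 0.0102). Limma adjusted p for the other 5 named so far lay between 0.000175 and 0.00735. None of these 5 or Nr0b2 lost its call when a mouse was left out. The remaining receptor that fell, Nr1h3, named after its values were seen, changed by -0.55 ± 0.13 (limma adjusted p = 0.0178). It lost its call without knock-in mouse 1 or wild-type mouse 2, 4 or 6 (limma adjusted p = 0.0539 to 0.0688).

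Most of the called coregulators rose. Of 16 listed, 14 were tested, and 7 rose, 1 fell and 6 did not pass, beside the same background, with a median of 0.34 that stayed between 0.25 and 0.43 as mice were left out. Ppargc1a, a fasting coactivator of HNF4A, read 6447, 5678 and 5635 in knock-in and 871, 1433 and 1346 in wild-type liver, a 4.92-fold difference (log2 change 2.30 ± 0.18; limma adjusted p = 0.000454). Its relative Ppargc1b rose by 1.17 ± 0.18, from 347 ± 20.4 to 816 ± 217. Smaller rises were measured for Nrip1, a nuclear receptor corepressor (0.53 ± 0.11), Med1, a mediator subunit (0.53 ± 0.11), and Kdm1a, a histone demethylase (0.49 ± 0.09). Med1 lost its call without knock-in mouse 1 or wild-type mouse 2 or 6 (limma adjusted p = 0.0543 to 0.0554). Hdac3, the deacetylase of corepressor complexes, read 884, 1081 and 732 in knock-in and 1603, 1387 and 1620 in wild-type liver and changed by -0.78 ± 0.15 (limma adjusted p = 0.00936).

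**Figure D3:**
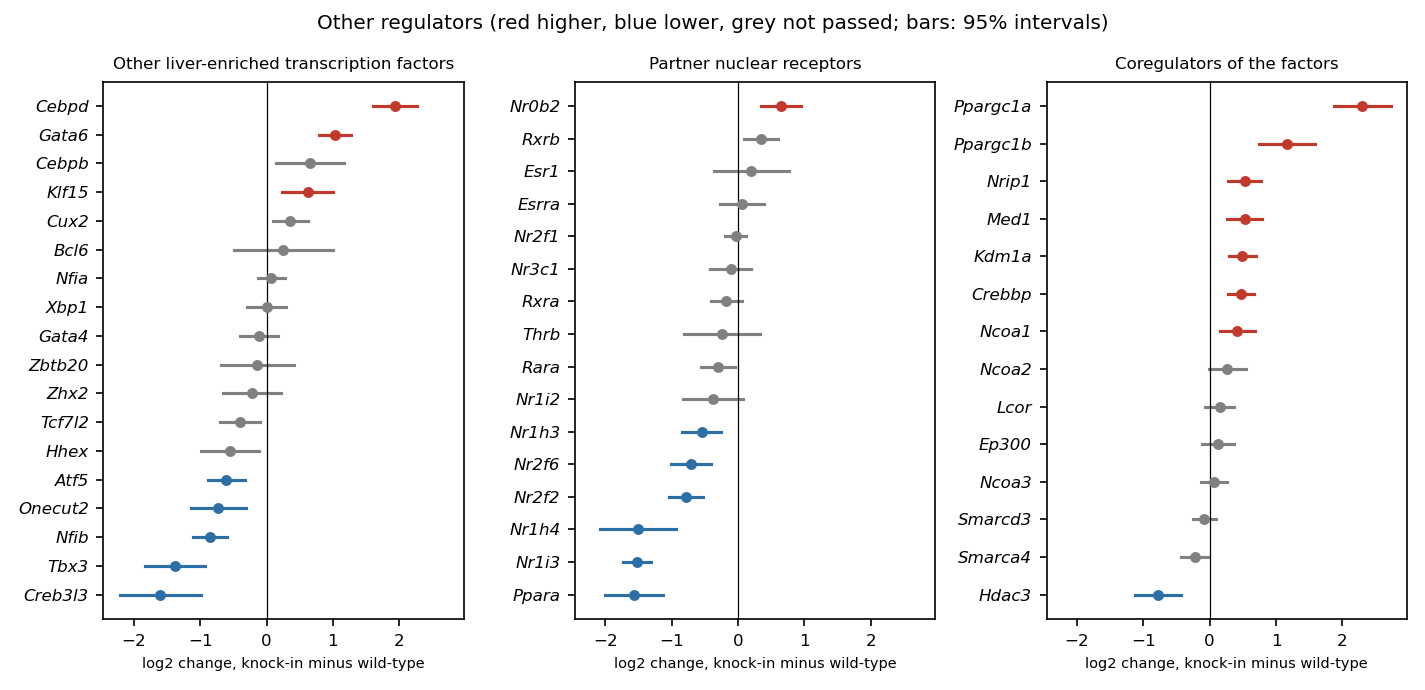
Log2 change, knock-in minus wild-type, of other liver-enriched transcription factors (18 genes), partner nuclear receptors (16) and coregulators (14), sorted by change, with 95% intervals as bars. Cebpd and Ppargc1a have the largest rises of their panels, and Creb3l3 and Ppara the largest falls.

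Known target genes were read by factor, from lists that share members (Tat is in 4 of the 5 target lists). Of 40 listed HNF4A targets, 34 were tested, with 12 lower, 4 higher and 18 not passed (median -0.26), beside 10.9% lower and 14.9% higher over all tested probe sets. The number lower was 9 to 16 as mice were left out. The number higher was less stable, at 0 without knock-in mouse 1 and 2 without knock-in mouse 5 or any wild-type mouse. It was 1 with arrays centred on their medians and 1 with no filter, where 14 and 10 were lower.

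Pklr, the liver pyruvate kinase gene, had the largest fall among HNF4A targets. It read 904, 2079 and 720 in knock-in and 4602, 7475 and 4566 in wild-type liver, which is 4.82-fold lower (log2 change -2.27 ± 0.38; limma adjusted p = 0.00543). The urea cycle gene Otc read 1253, 2089 and 761 against 4102, 4163 and 3938. Slco1b2, a hepatic uptake transporter, read 1019, 1769 and 745 against 3587, 3141 and 3441. In all 3 of these genes knock-in mouse 3 was the highest knock-in mouse, and it still lay below every wild-type mouse. F11, a coagulation factor gene, changed by -1.49 ± 0.23 and Cideb, a lipid droplet protein gene, by -1.12 ± 0.18.

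The HNF4A targets that rose were the sterol exporter genes Abcg5 and Abcg8 and the gluconeogenic and amino acid genes Pck1 and Tat, named after their values were seen. Abcg8 changed by 0.88 ± 0.26 and Abcg5 by 0.60 ± 0.17 (limma adjusted p = 0.0421 and 0.0399). Abcg8 lost its call without knock-in mouse 1 or any wild-type mouse, and Abcg5 without knock-in mouse 1 or 5 or wild-type mouse 4 or 6 (limma adjusted p = 0.0775 to 0.117). Both also lost their calls when arrays were centred on their medians (limma adjusted p = 0.0561 and 0.0636).

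Ttr, the transthyretin gene and a classic target of HNF4A and FOXA, read 12142, 12803 and 10966 in knock-in and 14112, 13599 and 13812 in wild-type liver. The genotypes did not overlap, but its change of -0.21 ± 0.07 did not pass (limma adjusted p = 0.0621). It passed without knock-in mouse 3, at -0.26 (limma adjusted p = 0.0267), and with arrays centred (limma adjusted p = 0.0397). Cyp7a1, the rate-limiting enzyme of bile acid synthesis and a target in 4 of the lists, read 3447, 6353 and 3459 against 5797, 7226 and 7878. Knock-in replicate 3 lay inside the wild-type range, and the change of -0.71 ± 0.24 did not pass (limma adjusted p = 0.0705). Without that mouse it was -0.998 (limma adjusted p = 0.00211).

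Of 18 listed C/EBP alpha targets 16 were tested, and 4 rose, 1 fell and 11 did not pass, with a median of 0.18. Over all tested probe sets 14.9% were higher and 10.9% lower, and their median was 0.03. The calls were few, but the median of the list stayed between 0.17 and 0.22 as mice were left out. Its summed level, weighted to the brightest genes, was 166697 to 174692 in knock-in and 144330 to 151859 in wild-type liver. Alb, the albumin gene, read 18818, 17542 and 16618 in knock-in and 17889, 16607 and 17168 in wild-type liver, a change of 0.03 ± 0.06 (95% interval -0.11 to 0.18; limma adjusted p = 0.746). Arg1, the urea cycle arginase, rose by 0.42 ± 0.08 and Tdo2, a tryptophan oxygenase, by 0.39 ± 0.06 (limma adjusted p = 0.00776 and 0.00376). Tat, the tyrosine aminotransferase gene, rose by 0.60 ± 0.12 but not without knock-in mouse 1 (limma adjusted p = 0.0509). Pck1 rose by 0.29 ± 0.08 (limma adjusted p = 0.0402), a call lost without knock-in mouse 1 or 5 or wild-type mouse 2 or 4 (limma adjusted p = 0.0724 to 0.123) and with arrays centred on their medians (0.0759). Ugp2, which makes the sugar donor for glycogen, was the 1 that fell, by 0.56 on the log2 scale (limma adjusted p = 0.00474). Counts were 2 higher without knock-in mouse 1 and 2 lower without knock-in mouse 3. There were 2 lower with arrays centred, and 7 higher and 2 lower with array weights or a filter at the 50th percentile.

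Of 20 listed FOXA targets 17 were tested, and 4 rose, 3 fell and 10 did not pass, with a median of -0.08 beside 0.03 over all tested probe sets. Of those probe sets 14.9% were higher and 10.9% lower. Igfbp1, a fasting-induced insulin-like growth factor binding protein, had the largest change of any target listed. It read 12978, 12323 and 14052 in knock-in and 847, 1909 and 2054 in wild-type liver (log2 change 3.12 ± 0.31; limma adjusted p = 0.000863). Slc2a2, the hepatic glucose transporter, read 1885, 3137 and 1700 against 5123, 6213 and 5543, a change of -1.37 ± 0.22 (limma adjusted p = 0.00435). The bile canalicular transporter genes Abcb4 and Abcb11 changed by -0.78 ± 0.18 and -0.36 ± 0.09 (limma adjusted p = 0.0183 and 0.0270).

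Leaving out mice changed the FOXA target counts. There were 2 higher without knock-in mouse 1, 1 lower without knock-in mouse 1 or 5 or wild-type mouse 2 or 6, and 6 lower without knock-in mouse 3. With array weights 5 were lower. The median was -0.04 without knock-in mouse 1 and -0.05 without wild-type mouse 6. Abcb11 lost its call when any single mouse but knock-in mouse 3 was left out (limma adjusted p = 0.0674 to 0.0920). Abcb4 lost its call without knock-in mouse 1 or 5 or wild-type mouse 2 or 6 (limma adjusted p = 0.0501 to 0.0718).

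NR5A2 targets also split, with 6 higher, 5 lower and 6 not passed among 17 tested of 20 listed (median -0.08). The shares over all tested probe sets were 14.9% higher and 10.9% lower. Plk3, a stress kinase, read 5222, 3624 and 6010 in knock-in and 1086, 1466 and 1300 in wild-type liver (log2 change 1.91 ± 0.20; limma adjusted p = 0.00102). Scarb1, the high-density lipoprotein receptor, rose by 0.91 ± 0.12 (limma adjusted p = 0.00232). The desaturase genes Fads2 and Fads1 changed by -1.57 ± 0.14 and -1.01 ± 0.20, with Fads2 at 2211, 3315 and 2715 against 8001, 8312 and 8002. Counts were 3 higher without knock-in mouse 1, and 2 lower without knock-in mouse 1 or 5 or wild-type mouse 4 or 6. The median was -0.24 without knock-in mouse 5.

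ONECUT1 targets had 10 of 14 tested, with 4 higher, 2 lower and 4 not passed (median 0.04). The shares over all tested probe sets were 14.9% higher and 10.9% lower. Tfpi2, a protease inhibitor gene, read 306, 493 and 266 in knock-in and 1172, 966 and 1017 in wild-type liver (log2 change -1.57 ± 0.22; limma adjusted p = 0.00256). The list holds Hnf4a, Slc2a2, Tat, Tdo2 and Pck1, described above. There were 2 higher without knock-in mouse 1 and 5 lower without knock-in mouse 3 (4 with array weights), and the median lay between 0.01 and 0.08 as mice were left out.

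**Figure D4:**
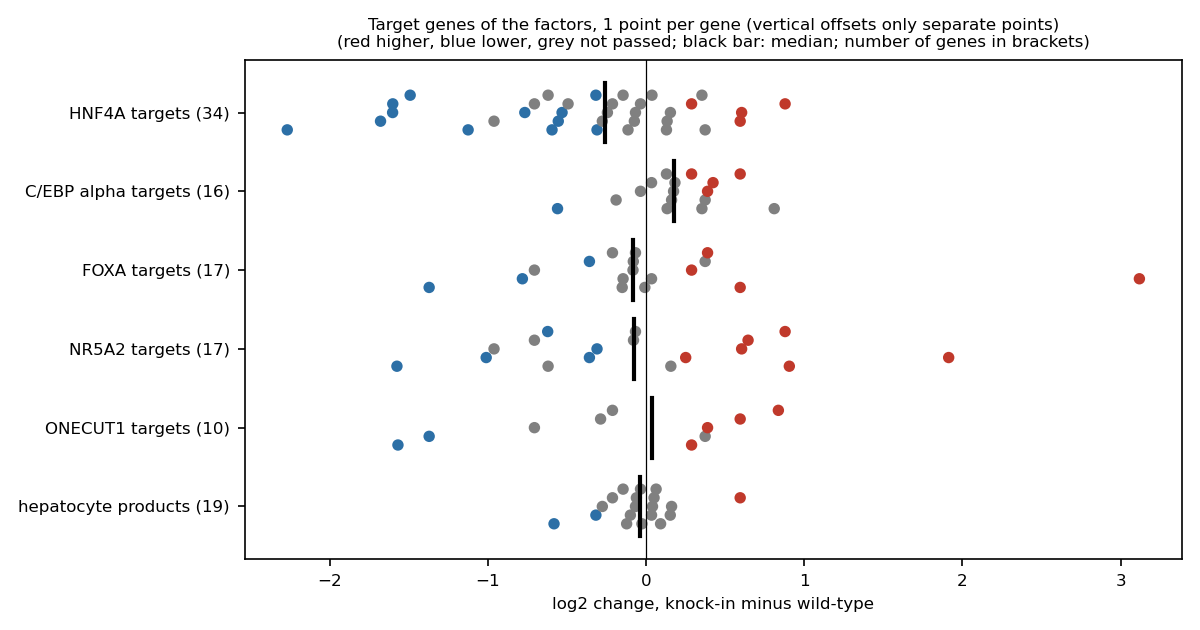
Log2 change, knock-in minus wild-type, of tested target genes of each factor and of hepatocyte products, 1 point per gene (red rose, blue fell, grey did not pass), with the median as a black bar; genes can be in several lists. HNF4A targets lie further to the left (median -0.26) than C/EBP alpha targets (median 0.18), and hepatocyte products sit close to 0.

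The liver label was checked on 20 hepatocyte products, of which 19 were tested. They were bright in both genotypes, with a summed level of 224923 to 246776 in knock-in and 234608 to 240311 in wild-type liver, and a median change of -0.03. There were 16 that did not pass, while Tat rose and Apoa2, an apolipoprotein, and Asgr1, the asialoglycoprotein receptor, fell, by 0.32 and 0.58 on the log2 scale (limma adjusted p = 0.0400 and 0.0242). The last 2 calls were lost when any single mouse but knock-in mouse 3 was left out (limma adjusted p = 0.0553 to 0.114), and without that mouse 4 were lower. With arrays centred or array weights 4 were lower, and with no filter or no trend in the prior 1 was. Without knock-in mouse 1 none was higher. The median was 0.002 without knock-in mouse 5, -0.02 without wild-type mouse 2 and -0.05 without knock-in mouse 1.

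Fetal liver genes were read because Hnf4a, Foxa1 and Cebpa change level during liver maturation. Of 13 listed, 11 were tested, and 3 rose and 8 did not pass (median 0.05), beside 14.9% higher over all tested probe sets. Afp, the fetal plasma protein gene, was dim at 44, 49 and 57 in knock-in and 48, 56 and 57 in wild-type liver. Peg3, an imprinted gene, rose by 0.98 ± 0.21, Rhob by 0.60 ± 0.15 and Igf2 by 0.29 ± 0.07 (limma adjusted p = 0.0123, 0.0230 and 0.0215). Only 1 was higher without knock-in mouse 1 or 5 or wild-type mouse 2 or 4, and 1 was lower without knock-in mouse 1. Peg3 lost its call without knock-in mouse 1 (limma adjusted p = 0.0523), Rhob without knock-in mouse 5 or wild-type mouse 2 or 4, and Igf2 when any single mouse but knock-in mouse 3 was left out. The median was 0.08 without knock-in mouse 1 or 3, 0.12 without knock-in mouse 5 and 0.10 without wild-type mouse 2. The summed level of 12 listed genes, 1 of them below the filter, was 1716 to 2038 in knock-in and 1327 to 1491 in wild-type liver. That sum holds Peg3, at 667, 616 and 516 in knock-in and 382, 213 and 311 in wild-type liver. It also holds Rhob, at 214, 287 and 268 against 135, 171 and 185. Both rose, so the sum does not give the level of the other fetal genes.

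Markers of other liver cells are given because Onecut1, Foxa1, Foxa2 and Prox1 are also expressed outside hepatocytes. Of 15 listed bile duct cell markers 10 were tested with limma and 0 were called. Of these 1, Prom1, was past 0.05 before adjustment. Krt19 read 104, 81 and 89 in knock-in and 87, 85 and 88 in wild-type liver, and Sox9 read 142, 143 and 147 against 120, 144 and 138, close to the array medians. The summed level of 11 listed genes, 1 of them below the filter, was 806 to 882 in knock-in and 774 to 847 in wild-type liver, and the median change lay between -0.02 and 0.03 as mice were left out.

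Sinusoidal and vascular endothelium had 2 higher, 5 lower and 8 not passed of 15 (median -0.26). The shares over all tested probe sets were 14.9% higher and 10.9% lower. Apart from Lyve1, Vwf rose by 0.49 ± 0.14, and the falls included Clec4g at -0.72 ± 0.21, Fcgr2b at -0.50 ± 0.11, Kdr at -0.49 ± 0.11 and Oit3 at -0.48 ± 0.10. With single mice left out 1 was higher, and the number lower was 1 without knock-in mouse 1 or wild-type mouse 2, 0 without wild-type mouse 6 and 8 without knock-in mouse 3. Without knock-in mouse 3 the median was -0.40. With arrays centred, quantile normalization or no filter 1 was higher. Vwf lost its call when any single mouse but knock-in mouse 5 was left out, and with arrays centred (limma adjusted p = 0.0571), and Clec4g lost it when any but knock-in mouse 3 was left out. Kdr lost its call without knock-in mouse 1 or wild-type mouse 2 or 6, Fcgr2b without wild-type mouse 2 or 6, and Oit3 without knock-in mouse 1 or wild-type mouse 6 (limma adjusted p = 0.0506 to 0.0601). The summed level was 8636 to 11241 in knock-in and 10662 to 11243 in wild-type liver. Lyve1, which rose, is in that sum, at 761, 1474 and 1194 in knock-in and 232, 581 and 465 in wild-type liver. The sum therefore does not give the level of the other endothelial markers.

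Stellate cell markers had 1 higher, 3 lower and 9 not passed of 13 (median -0.17). The shares over all tested probe sets were 14.9% higher and 10.9% lower. Lrat, the retinol-storing enzyme, changed by -1.16 ± 0.21, Colec11 by -0.90 ± 0.22 and Ngfr by -0.42 ± 0.09, while the matrix gene Dcn rose by 0.49 ± 0.09. Colec11 lost its call without knock-in mouse 1 or 5 or wild-type mouse 2 or 6 (limma adjusted p = 0.0692 to 0.0804). Without knock-in mouse 3 there were 5 lower, as with array weights, and the summed level was 10985 to 12589 in knock-in and 10827 to 11688 in wild-type liver. Dcn, which rose, is the brightest gene in that sum, at 6731, 6736 and 5978 in knock-in and 4891, 4225 and 4704 in wild-type liver. The sum therefore does not give the level of the other stellate markers.

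Kupffer cell markers had 3 lower and 11 not passed of 14 (median -0.30), beside 10.9% lower over all tested probe sets. Adgre1, which encodes F4/80, read 168, 193 and 88 in knock-in and 456, 308 and 222 in wild-type liver, Folr2 changed by -1.07 ± 0.26 and Aif1 by -0.32 ± 0.07. Adgre1 lost its call without knock-in mouse 1 or 5 or wild-type mouse 2 or 4 (limma adjusted p = 0.0865 to 0.127), Folr2 without knock-in mouse 1 or wild-type mouse 2, and Aif1 without knock-in mouse 1 or 5. The Adgre1 call was also lost with array weights, no filter or a robust prior (limma adjusted p = 0.0503 to 0.0744). Without wild-type mouse 2 or 4, Aif1 was under the filter on low values and was not tested. The number lower was 0 without knock-in mouse 1 or wild-type mouse 2 and 1 without knock-in mouse 5 or wild-type mouse 4, and 2 were higher without knock-in mouse 5. These 2 were Marco at 0.66 and Cd163 at 0.65 (limma adjusted p = 0.0189 and 0.00776). With all mice they changed by 0.48 ± 0.17 and 0.37 ± 0.22 and did not pass. The median was -0.10 without wild-type mouse 2 and -0.50 without wild-type mouse 6. The summed level was 4095 to 7127 in knock-in and 6024 to 10147 in wild-type liver. The part of these cell types in the changes of Foxa1, Cebpa, Prox1 and Hnf4a was not tested.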

How the data were processed

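Liver RNA of 6 mice was hybridised to 1-colour arrays, with RNeasy isolation, SuperScript cDNA and biotin labelling by in vitro transcription per the labels' protocols. The authors deposited 1 linear intensity per probe set and array, in whole numbers. The probe summary and normalization are not stated in these sources. There is no read depth on an array, and 3 arrays for each genotype limit the precision.

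Values entered the fit as log2(intensity + 16), which understates changes of dim genes. After a filter at the 25th percentile of the mean, limma 3.58.1 (R 4.3.3; lmFit, eBayes with trend) tested 26634 probe sets, with Benjamini-Hochberg adjustment over them and a threshold of 0.05. The procedure was also run on simulated data with independent noise and far fewer changed probe sets than were called here. That run does not bear on the calls reported. Of all probe sets 21789 had 1 symbol in the platform annotation, which can be old, 1621 had several and 12102 were not listed. A gene with several probe sets was represented by the brightest. Probes of gene families may share signal. The p-values measure the spread between mice.

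Members and lists were chosen with earlier results of these data known. Named are the 8 factors, the called genes of largest change in each list (up to 6), 14 genes of prior interest (such as Alb, Ttr and Cyp7a1), the 3 nearest in pattern to each called factor, and others said to be named after their values were seen. Alternatives were pseudocounts of 1 and 64, quantile or median scaling, other filters, priors, weights, thresholds and probe set choices, and each mouse left out. Promoter windows are 250 bases from RefSeq. Figures were drawn with matplotlib 3.10.9.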

Additional observations from a re-analysis of the deposited data

How the results depend on the processing

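The calls on Hnf4a, Foxa1, Cebpa and Prox1 kept direction and side of the threshold in all 16 alternatives, with limma adjusted p no higher than 0.0348. Of the others, the log2 change of Foxa2 passed at -0.52 without knock-in replicate 3, the log2 change of Foxa3 ran from -0.14 to 0.026 as mice were left out (above 0 without wild-type replicate 6), and the log2 change of Onecut1 from -0.092 to 0.39 (below 0 without knock-in replicate 3). The cause was not tested. With 1 probe set per gene, where fewer were tested, there were 2320 probe sets called higher and 2508 probe sets called lower. A minimum of 1.5-fold left 2077 probe sets called higher and 1774 probe sets called lower. As each mouse was left out, 2422 to 4271 probe sets called higher and 1814 to 3454 probe sets called lower were counted. The lowest came without knock-in replicate 1, wild-type replicate 2 gave 2602 and 1876, and wild-type replicate 6 gave 2584 higher. No paired analysis was possible because the genotypes share no replicate numbers. Of 810 list values under alternatives, 693 were counted as unchanged. For a count this meant staying within 1.5-fold, and for a median keeping its sign with a small absolute shift. A median near 0 can therefore count as unchanged although it moved by a large share of its size. With 3 mice per genotype, changes as small as those of Nr5a2 and Foxa3 could not be separated from 0.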
